A study of Homo sapiens with 2 samples.

Results

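The kinesin and centromere protein genes were taken as the protein-coding genes whose symbol starts with KIF and a digit, or with CENP and 1 or 2 letters. The rule found 63 genes, 39 KIF and 24 CENP genes, of 20037 protein-coding genes on chromosomes 1 to 22, X and Y in the RefSeq annotation of GRCh38.p14. The rule used no measured value. A mitotic group of 28 genes holds all CENP genes with KIF11, KIF23, KIF20A and KIF4A, and the other 35 kinesins form the second group. In the first group 4 genes carry more than a complete CENP symbol, namely the readthrough gene CENPS-CORT and the CENPV retrogenes CENPVL1, CENPVL2 and CENPVL3.

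The data were 2 lists of peaks made by CUT&Tag, in which an antibody directs a transposase to the chromatin around a bound protein so that the DNA there can be sequenced. The cells of both libraries were MDA-MB-231, a triple-negative breast cancer line long kept in culture, with no treatment or genetic change named in the labels. One library was made with an antibody against RUNX2, a transcription factor of the RUNX family, and the other with an antibody against MTA1, a subunit of the nucleosome remodelling and deacetylase complex NuRD. Each antibody had 1 library, so nothing below has a replicate, no control library was analysed here and no test was made. The labels name Cell Signaling Technology for both antibodies while the methods name other suppliers, and the labels describe adaptor ligation, which CUT&Tag does not normally use. Antibody product and preparation are therefore uncertain.

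The lists held 61700 RUNX2 and 42683 MTA1 peaks on chromosomes 1 to 22, X and Y, each with a score whose scale was not given. RUNX2 scores ran from 3 to 108 with a median of 6.7, and MTA1 scores from 3.01 to 98.7 with a median of 7.58. The submitters' processing notes name the build hg19, but the positions matched GRCh38. At the listed positions 49.9% of all protein-coding genes had a RUNX2 peak within 1 kb of an end of the gene and 50.9% had an MTA1 peak. After moving the peaks by 100 kb to either side the shares were 13.8% and 13.6% for RUNX2 and 10.5% and 10.5% for MTA1. Coordinates are given as the files list them and are read as GRCh38.

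Centromere proteins assemble on the centromere of each chromosome, where a histone H3 variant marks the site and a constitutive inner complex carries the kinetochore, the structure that holds spindle microtubules. Kinesins are motors that use ATP to move along microtubules or to shorten them, and different families carry cargo along axons and cilia, build the spindle or complete cell division. Many genes of mitosis are transcribed mainly late in the cell cycle from promoters with CCAAT boxes, the binding letters of NF-Y, and a cell cycle genes homology region (CHR).

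The promoters of the mitotic genes with the highest-scoring peaks are shown with that of CENPV, the first mitotic gene in the alphabet with no peak in either list. Each run holds the 250 bases before the annotated start, 5′ to 3′ on the coding strand, from the RefSeq promoter table of GRCh38.p14. Capitals mark the letters CCAAT or, read on the other strand, ATTGG.
CENPF, chr1:214602945-214603194, + strand: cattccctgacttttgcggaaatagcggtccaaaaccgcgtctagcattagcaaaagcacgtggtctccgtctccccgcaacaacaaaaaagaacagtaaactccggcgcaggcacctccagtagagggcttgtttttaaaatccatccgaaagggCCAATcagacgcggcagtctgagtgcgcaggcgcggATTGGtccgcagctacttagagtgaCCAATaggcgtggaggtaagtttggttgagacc
CENPX, chr17:82022879-82023128, - strand: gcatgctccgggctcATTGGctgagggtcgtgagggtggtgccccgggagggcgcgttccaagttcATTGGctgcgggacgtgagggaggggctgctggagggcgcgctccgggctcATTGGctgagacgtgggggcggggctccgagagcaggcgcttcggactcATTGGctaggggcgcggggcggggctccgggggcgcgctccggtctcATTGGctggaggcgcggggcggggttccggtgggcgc
CENPT, chr16:67847694-67847943, - strand: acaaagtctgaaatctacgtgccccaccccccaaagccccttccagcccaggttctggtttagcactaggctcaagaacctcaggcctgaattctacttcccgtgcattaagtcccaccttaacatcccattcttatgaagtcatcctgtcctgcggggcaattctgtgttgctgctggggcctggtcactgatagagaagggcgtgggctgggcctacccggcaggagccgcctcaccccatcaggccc
CENPV, chr17:16353470-16353719, - strand: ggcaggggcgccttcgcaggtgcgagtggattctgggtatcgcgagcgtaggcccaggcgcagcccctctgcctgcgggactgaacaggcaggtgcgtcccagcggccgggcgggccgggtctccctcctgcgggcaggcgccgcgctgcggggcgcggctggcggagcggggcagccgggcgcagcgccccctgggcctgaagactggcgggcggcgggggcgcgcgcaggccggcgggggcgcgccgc

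The CENPF run held 3 CCAAT letters and the CENPX run 5, and neither CENPT nor CENPV held any. None of these runs held the CHR letters TTTGAA or TTCGAA or the RUNX letters TGTGGT or TGCGGT on either strand. The motif shares given further below use longer windows that also run past the start. In those windows CENPF held 4 CCAAT letters and 1 set of CHR letters, and CENPX held 1 set of RUNX letters. CENPT and CENPV held none of these letters in those windows either. RUNX2 and MTA1 peaks covered all 250 bases of CENPF and of CENPX. They covered 154 and 151 bases of the CENPT run, though with weaker peaks than the best ones of this gene, and 0 bases of CENPV.

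Most kinesin and centromere protein genes had a peak of both libraries at a gene end. RUNX2 peaks within 1 kb of an end were found in 42 of 63 genes (66.7%, exact 95% interval 53.7 to 78), against 49.9% of all protein-coding genes. MTA1 peaks were found there in 45 of 63 (71.4%, 58.7 to 82.1), against 50.9%. Both were present in 41 genes (65.1%, 52 to 76.7), against 43.9%. These intervals cover counting error over genes only, and neighbouring or related genes are not independent.

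KIF6 had a RUNX2 peak only (1.59%), against 5.99% of all protein-coding genes. CENPE, CENPW, KIF15 and KIF16B had an MTA1 peak only (6.35%, 1.76 to 15.5), close to 7.07% of all protein-coding genes. The remaining 17 genes had neither (27%, 16.6 to 39.7), against 43.1% of all protein-coding genes. A gene without a listed peak at its ends can have absent binding there or signal under the threshold of its library, which cannot be told apart here. KIF24, counted among the genes with neither, had peaks of 19.7 for RUNX2 and 42.4 for MTA1 over its annotated start. That start lies away from the ends used here.

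The mitotic genes more often had a peak than the other kinesins, with intervals that were wide. RUNX2 peaks marked 22 of 28 mitotic genes (78.6%, 59 to 91.7) and 20 of 35 other kinesins (57.1%, 39.4 to 73.7), a difference of 21.4 percentage points (Newcombe 95% interval -2.01 to 41.2). MTA1 peaks marked 24 of 28 (85.7%, 67.3 to 96) and 21 of 35 (60%, 42.1 to 76.1), a difference of 25.7 points (3.25 to 44.3). Both peaks were found at 22 mitotic genes and 19 other kinesins, a difference of 24.3 points (0.611 to 43.9). The interval for RUNX2 included 0, that for both began close to 0, at 0.611, and that for MTA1 began at 3.25. CENPS and CENPS-CORT share the same peaks yet are counted separately here. Genes are not replicates, so these intervals describe counts and decide nothing about the groups.

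**Figure D1:**
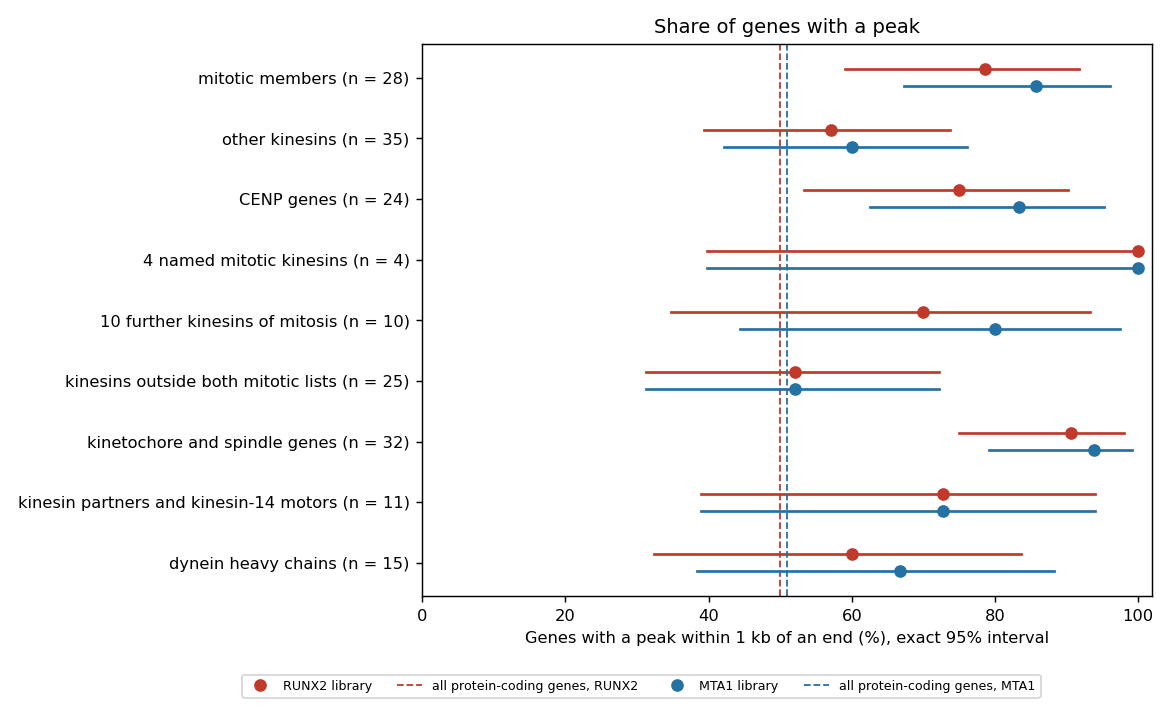
Share of genes with a RUNX2 (red) or MTA1 (blue) peak within 1 kb of an end, in percent on the horizontal axis, for 9 sets of genes on the vertical axis. Points are shares, bars exact 95% intervals and dashed lines the shares over all protein-coding genes, 49.9% and 50.9%. The mitotic genes, at 78.6% and 85.7%, lie above both lines, and the kinesins outside both mitotic lists, at 52% each, lie close to them.

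The mitotic genes also differed from the other kinesins in how close they lay to other genes. Another protein-coding gene ended or began within 1 kb of an end of 15 of 28 mitotic genes (53.6%) and 9 of 35 other kinesins (25.7%), against 28.5% of all protein-coding genes. Over all protein-coding genes a RUNX2 peak was found at 67.9% of those with such a neighbour and 42.7% of those without, and an MTA1 peak at 71.2% and 42.9%. All 15 mitotic genes with a neighbour had both peaks. Of the 9 other kinesins with a neighbour, 6 had a RUNX2 peak and 7 an MTA1 peak.

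Without a neighbour, 53.8% of the remaining 39 genes had a RUNX2 peak (37.2 to 69.9) and 59% an MTA1 peak (42.1 to 74.4), with intervals that included 42.7% and 42.9%. The RUNX2 shares of the groups were then equal, at 7 of 13 mitotic genes and 14 of 26 other kinesins, or 53.8% each, a difference of 0 points (-30.2 to 29.4). The MTA1 shares were 9 of 13 (69.2%) and 14 of 26 (53.8%), a difference of 15.4 points (-16.6 to 41.2). Of the mitotic genes without a neighbour, CENPV and its 3 retrogenes account for all 4 that had neither peak. The mitotic genes were also shorter, with a median length of 25614 bp against 56378 bp. The part of neighbours and length in the difference between the groups was not tested further.

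Grouped by what their proteins do, most classes of the mitotic group had both peaks. The inner kinetochore, counted here with CENPC and CENPS-CORT, had RUNX2 peaks at 15 of 16 genes and MTA1 peaks at 16 of 16. CENPA, the histone variant itself, CENPB, which binds satellite DNA of the centromere, and CENPF, a large protein of the outer corona, each had both. CENPV and its retrogenes had a peak of either library at 0 of 4 genes, which allows a share of up to 60.2%.

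Scores were compared between the libraries only as ranks, since their scale is unknown. The rank of a gene is the percentage of protein-coding genes with a peak of that library whose best score was lower, so that 50 is the middle of all such genes. CENPF had the highest RUNX2 score of the mitotic group, 40.6 at chr1:214602888-214603326, higher than 96.4% of such genes. Its MTA1 peak at chr1:214602870-214603287 scored 32.5, with a rank of 87.8. CENPA scored 30.1 for RUNX2 at chr2:26785769-26786072 and 27.2 for MTA1 at chr2:26785768-26786086, with ranks of 90.6 and 81.6. Both genes ranked above 75 in both lists.

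CENPC, which links the CENPA nucleosome to the outer kinetochore, differed between the libraries. Its RUNX2 peak scored 10.4 with a rank of 48.6, and its MTA1 peak 29.3 with a rank of 84.5, both over the annotated start near chr4:67545397-67545693. CENPB stood low in both, with scores of 3.98 for RUNX2 and 6.41 for MTA1. Its peaks lay at opposite ends of the gene, the MTA1 peak over the start and the RUNX2 peak 2086 bp downstream of it.

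Among the genes of the complex of CENPH, CENPI, CENPK and CENPM, MTA1 ranks lay between 51 and 61.7, close to the middle of all genes with a peak. RUNX2 ranks of the same genes were spread from 12.3 for CENPK to 65.4 for CENPM. Scores for RUNX2 and MTA1 were 9.39 and 17 for CENPH, 8.03 and 16.7 for CENPI, 5.22 and 13.4 for CENPK, and 15 and 16 for CENPM. The CENPI peaks were centred 2960 and 3022 bp from its annotated start in the promoter table, on the upstream side. CENPL and CENPN, the pair that recognises the CENPA nucleosome together with CENPC, scored 12.1 and 9.03 for RUNX2 and 15.7 and 24.9 for MTA1. CENPN ranked higher for MTA1, at 78.1, than for RUNX2, at 41.3.

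The genes of the CENPO, CENPP, CENPQ and CENPU complex, which helps to hold kinetochores on microtubules, did not stand together. CENPO scored 25.6 for RUNX2 and 18.3 for MTA1, and CENPU 22.4 and 18.5. CENPQ was intermediate at 12.3 and 10.3, and CENPP low at 5.26 and 4.99. RUNX2 ranks therefore ran from 15.1 for CENPP to 85.5 for CENPO within 1 protein complex.

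The histone-fold proteins CENPT, CENPW, CENPS and CENPX bind DNA together, and their genes differed widely in score. CENPX had the highest MTA1 score of the mitotic group, 40.7 at chr17:82022844-82023268, with a rank of 93.9, and a RUNX2 score of 30.5 with a rank of 90.9. CENPT scored 36.1 for MTA1 at chr16:67846509-67847004 and 22.4 for RUNX2, with ranks of 91 and 81.2. Its best peaks lay inside the gene, 936 and 892 bp downstream of its annotated start, and nearer to the start of NUTF2, at 176 and 132 bp. CENPS scored 6.73 for MTA1 and 4.33 for RUNX2. CENPS-CORT shares these peaks and adds nothing independent. CENPW had no RUNX2 peak and an MTA1 score of 5.15.

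The 4 named mitotic kinesins all had both peaks, with ranks from 26.5 to 74.5 for RUNX2 and from 29.5 to 70.6 for MTA1, so none reached a rank of 75. KIF11, which pushes the spindle poles apart, scored 15.5 for RUNX2 at chr10:92592942-92593064 and 14.1 for MTA1. KIF20A, which carries the chromosomal passenger complex to the central spindle, scored 10.5 and 20.8. KIF4A, a motor of chromosome arms and the central spindle, scored 6.87 and 8.49, with its peaks nearer to the start of PDZD11 than to its own.

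KIF23, the motor of the centralspindlin complex, had 2 peaks in each list, and the stronger one differed between the libraries. Over its start the peaks scored 5.48 for RUNX2 and 12.3 for MTA1, at chr15:69414165-69414402 and chr15:69414138-69414436. About 600 bp downstream, at chr15:69414796-69415125 and chr15:69414819-69415080, they scored 18.7 and 5.56. CENPE, a kinesin that moves chromosomes to the spindle equator, had no RUNX2 peak and an MTA1 score of 4.99 over its start.

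The scores gave no clear order of the groups. The median rank for RUNX2 of genes with a peak was 52.1 in the mitotic group and 57.4 in the other kinesins. The difference was -5.37 (range -49 to 63.3). For MTA1 the medians were 58.8 and 57.7, a difference of 1.07 (range -42.5 to 29.6). Each range joins the outer ends of the separate 95% order-statistic intervals of the group medians. It is therefore wider than a 95% interval of the difference. Over all 63 genes the median ranks were 54.6 and 58.4. Ranks of 75 or more were held by 6 mitotic genes and 6 other kinesins for RUNX2, and by 6 and 4 for MTA1.

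**Figure D2:**
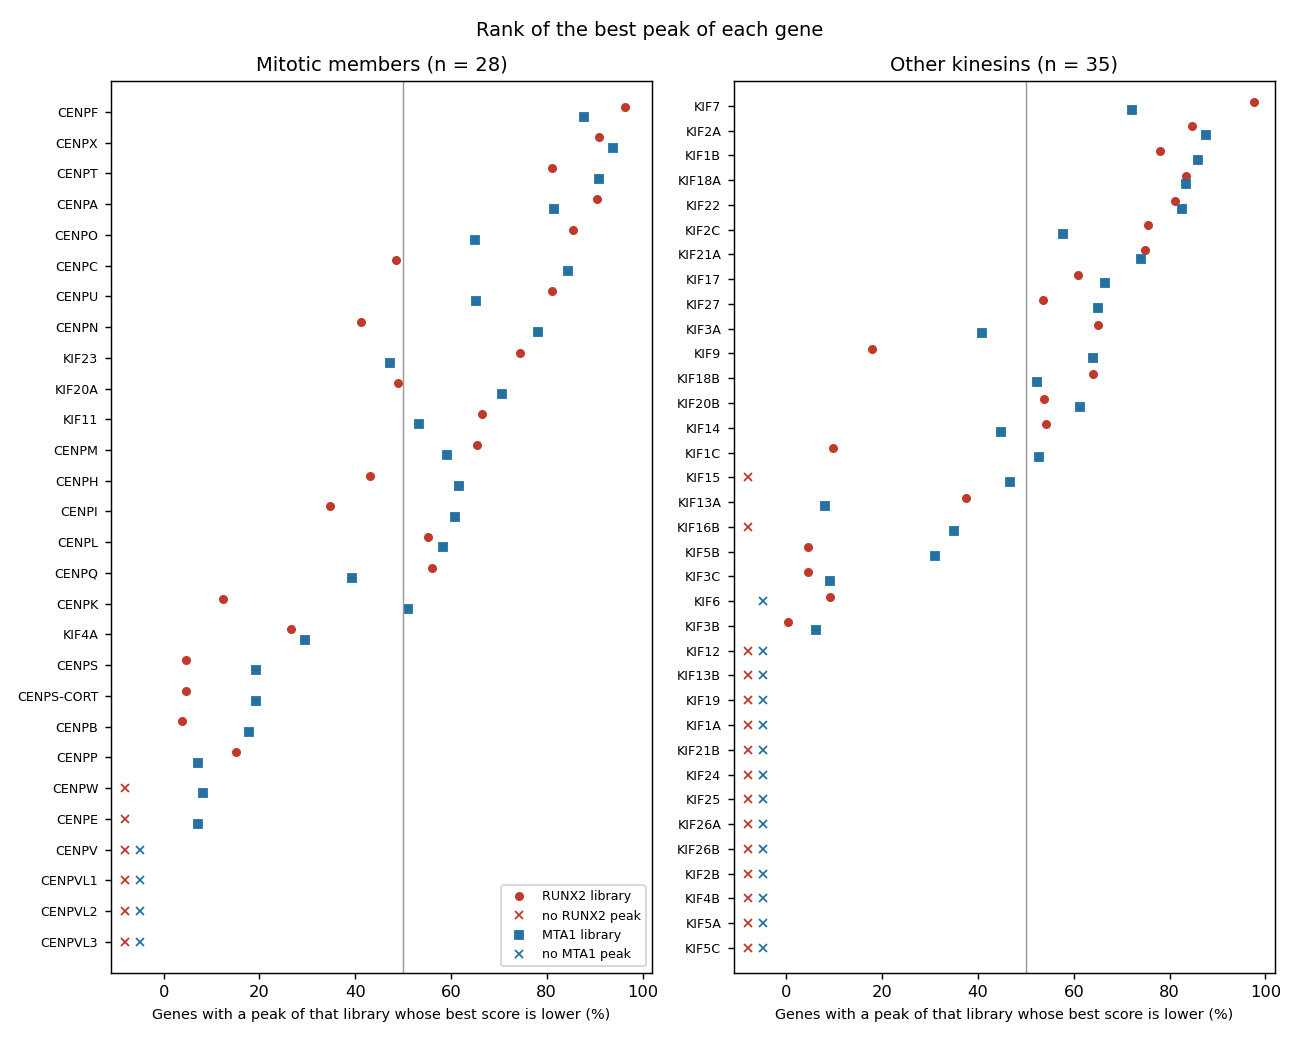
Rank of the best peak of each gene within 1 kb of an end, as the percentage of protein-coding genes with a peak of that library whose best score is lower, for 28 mitotic genes (left) and 35 other kinesins (right). Circles are RUNX2, squares MTA1 and crosses genes without a peak of that colour. Ranks in both panels spread from below 10 to above 90, and 4 mitotic genes and 13 other kinesins have crosses only.

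Within 1 kb of a gene end, the strongest RUNX2 peaks of the other kinesins were at KIF7, KIF2A, KIF18A, KIF22 and KIF1B. KIF7, a kinesin of the cilium that acts in Hedgehog signalling, had the highest RUNX2 score at an end of any of the 63 genes, 45.9 at chr15:89662948-89663563, with a rank of 97.7. Its MTA1 peak there scored 21.6. These peaks lay 7788 and 7662 bp upstream of the annotated start in the promoter table, and the strongest peaks within 1 kb of that start scored 4.54 for RUNX2, just upstream of it, and 4.36 for MTA1, from 870 bp downstream of it.

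For MTA1 peaks within 1 kb of an end the order was KIF2A, KIF1B, KIF18A, KIF22 and KIF21A. KIF2A, which shortens microtubules at the spindle poles, scored 25 for RUNX2 and 32.1 for MTA1 over its start near chr5:62305880-62306231. KIF18A, which limits the movements of aligned chromosomes, scored 23.9 and 28.5, and KIF22, a motor that binds chromosome arms, 22.4 and 27.8. The best MTA1 peak of KIF22 was at the far end, next to MAZ. KIF1B, a transporter of mitochondria and synaptic vesicle precursors, scored 20.3 and 30.7, and KIF21A, a kinesin of axons, 18.9 and 22.5.

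Of these leading genes, KIF2A, KIF18A and KIF22 are themselves known for work in mitosis. They belong to 10 further kinesins of mitosis that the rule placed outside the mitotic group, of which 7 had a RUNX2 peak (70%, 34.8 to 93.3) and 8 an MTA1 peak (80%, 44.4 to 97.5). Their median ranks were 75.4 and 59.4. The 25 kinesins outside both mitotic lists had a peak at 13 genes for each library (52%, 31.3 to 72.2), close to 49.9% and 50.9% of all protein-coding genes, with median ranks of 37.5 and 52.8. With the 10 kinesins moved to the mitotic group, the differences in share were 24.3 points (0.571 to 45.7) for RUNX2 and 32.2 points (9.04 to 52.5) for MTA1.

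Among the other kinesins, 1 of 35 had a RUNX2 peak only (2.86%) and 2 of 35 an MTA1 peak only (5.71%), against 5.99% and 7.07% of all protein-coding genes. KIF6, of the kinesin-9 family, had a RUNX2 score of 4.84 at chr6:39328888-39329077, at its far end and 102408 bp from its annotated start. KIF15, which can stand in for KIF11 on the spindle, had an MTA1 score of 12.2 at its start, and KIF16B, a motor of early endosomes, one of 9.49. Neither peak was strong, with ranks of 46.7 and 35.

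The 13 other kinesins with neither peak within 1 kb of an end were KIF1A, KIF2B, KIF4B, KIF5A, KIF5C, KIF12, KIF13B, KIF19, KIF21B, KIF24, KIF25, KIF26A and KIF26B. By family, kinesin-2, whose motors serve the cilium, had both peaks at 4 of 4 genes. Its median ranks were low, 32.7 for RUNX2 and 25.1 for MTA1. The peaks of KIF17, named after its values were seen, lay 56348 and 56365 bp from its annotated start. They were nearest to the start of DDOST. Kinesin-6, the family of KIF20A and KIF23, had both peaks at 3 of 3 genes. Kinesin-1, the classical cargo carriers, had both at 1 of 3 genes, KIF5B, named here after its values were seen, and kinesin-11 at 0 of 2. A family of so few genes allows almost any share, with exact intervals of 39.8 to 100% for 4 of 4 and 0.84 to 90.6% for 1 of 3.

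Peaks of the libraries mostly lay at the same place. In 39 of the 41 genes with both peaks, a RUNX2 and an MTA1 peak overlapped by at least 1 bp (95.1%, 83.5 to 99.4), against 8383 of 8791 protein-coding genes (95.4%). CENPB and KIF3C, the latter named after its values were seen, were the exceptions, with the peaks at opposite ends of the gene. The MTA1 rank was the higher in 25 of the 41 genes and the RUNX2 rank in 16. Across these 41 genes, which are not independent replicates and come from 1 library each, the best scores had a Spearman rho of 0.736 and a Pearson r of 0.691, and the rho over all protein-coding genes with both was 0.641.

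Where the annotated start was known, for 54 of the 63 genes, the peaks gathered just upstream of it, as they did over all genes. In 34 genes a RUNX2 peak was within 1 kb of a start, where 52.1% of all protein-coding genes with a known start had one. The strongest of them covered the start in 20 and was centred upstream in 29 (85.3%, against 73.9% over all genes). The median centre was -98 bp, against -87 bp over all protein-coding genes. In 40 genes an MTA1 peak was as close, against 53.9% of all protein-coding genes. The strongest covered the start in 29 and was centred upstream in 32 (80%, against 76.6% over all genes). Its median centre was -74 bp, against -84 bp. The centre lay within 200 bp of the start in 73.5% of these genes for RUNX2 and 82.5% for MTA1, against 67.8% and 73% over all genes.

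**Figure D3:**
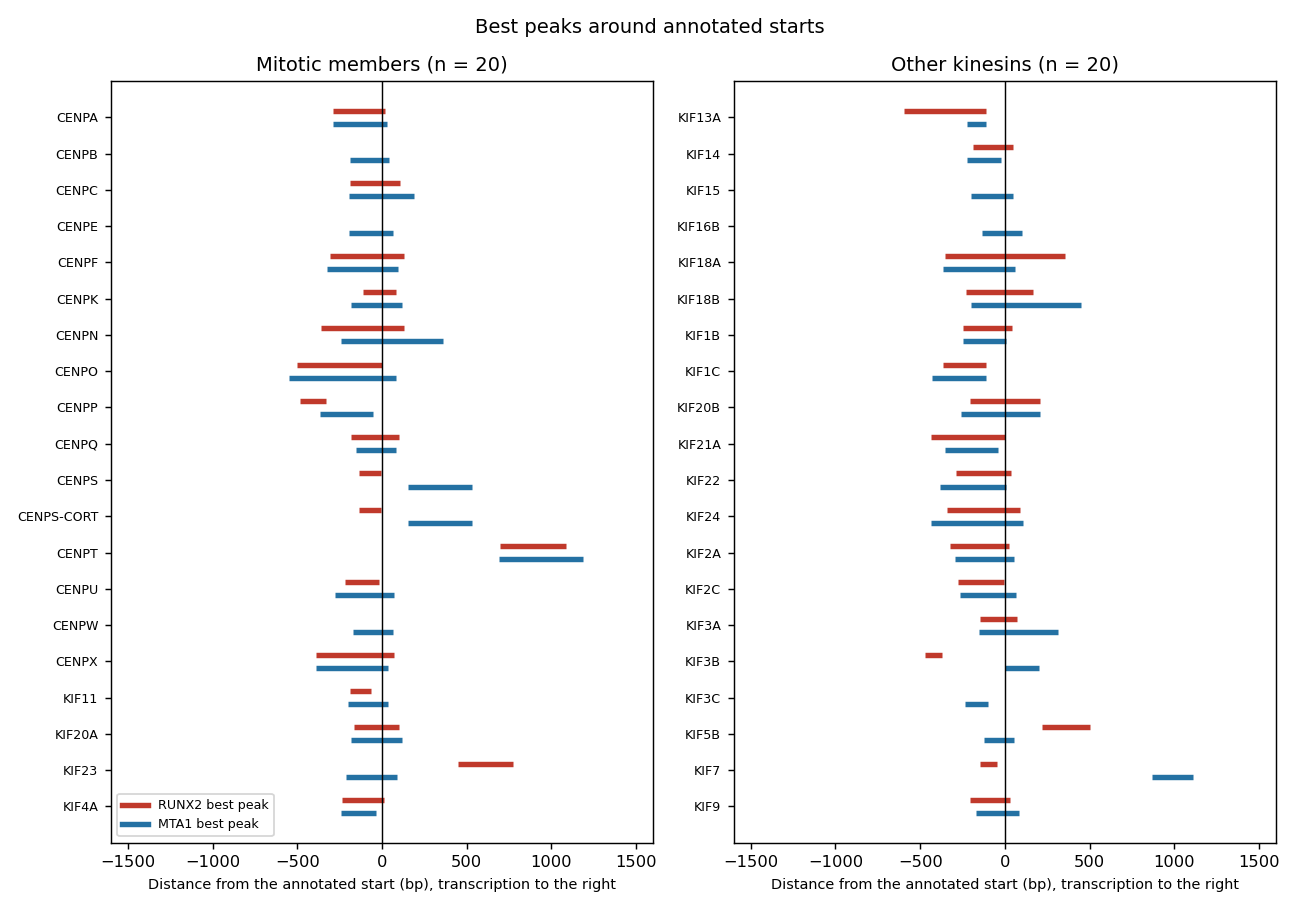
Position of the highest-scoring RUNX2 (red) and MTA1 (blue) peak within 1 kb of an annotated start, in bp from the start with transcription to the right, for 20 mitotic genes (left) and 20 other kinesins (right). Each bar spans a peak from its first to its last base, and most bars lie on or just left of the line at the start. Bars wholly to the right of it are those of CENPT, of KIF23 and KIF5B for RUNX2, and of KIF7, CENPS and CENPS-CORT for MTA1.

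Several of these starts face another gene. A gene on the other strand began within 1 kb of the start of 10 of 25 mitotic genes and 5 of 29 other kinesins, among them PTRHD1 at 34 bp from CENPO, MMUT at 117 bp from CENPQ, NOL8 at 118 bp from CENPP, PPWD1 at 128 bp from CENPK and LRRC45 at 427 bp from CENPX. A peak in such a gap cannot be assigned to either gene. The best peak lay nearer to the start of another gene than to its own in 3 mitotic genes for each library, CENPO, CENPT and KIF4A, and in 4 other kinesins for each.

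CCAAT and CHR letters were found at larger shares of promoters in both groups than over all genes, while RUNX letters were not in the mitotic group. In windows of 250 bases before to 50 after the start, CCAAT was found on either strand in 16 of 25 mitotic genes (64%, 42.5 to 82) and 13 of 29 other kinesins (44.8%, 26.4 to 64.3), against 36.4% of 15843 protein-coding promoters. CHR letters were found in 10 of 25 (40%, 21.1 to 61.3) and 9 of 29 (31%, 15.3 to 50.8), against 13.6%. RUNX letters were found in 2 of 25 (8%, 0.984 to 26) and 6 of 29 (20.7%, 7.99 to 39.7), against 18.9%. The intervals for RUNX letters in both groups, and for CCAAT in the other kinesins, included the share of all promoters. None of these motifs contains another, though matches may share bases.

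Windows with CHR letters were also those that more often lay under a peak. CHR letters were in 17 of 36 windows with an MTA1 peak (47.2%) and 2 of 18 without (11.1%), and in 15 of 33 with a RUNX2 peak (45.5%) and 4 of 21 without (19%). Over all protein-coding promoters the order was the opposite, at 10.8% with and 15.8% without an MTA1 peak, and 9.99% and 16% for RUNX2. RUNX letters were in 5 of 33 windows with a RUNX2 peak (15.2%) and 3 of 21 without (14.3%), against 21.1% and 17.4% over all promoters. The median GC content of the windows was 63.2%, against 62.7%. A match in these letters is not evidence of a bound factor.

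**Figure D4:**
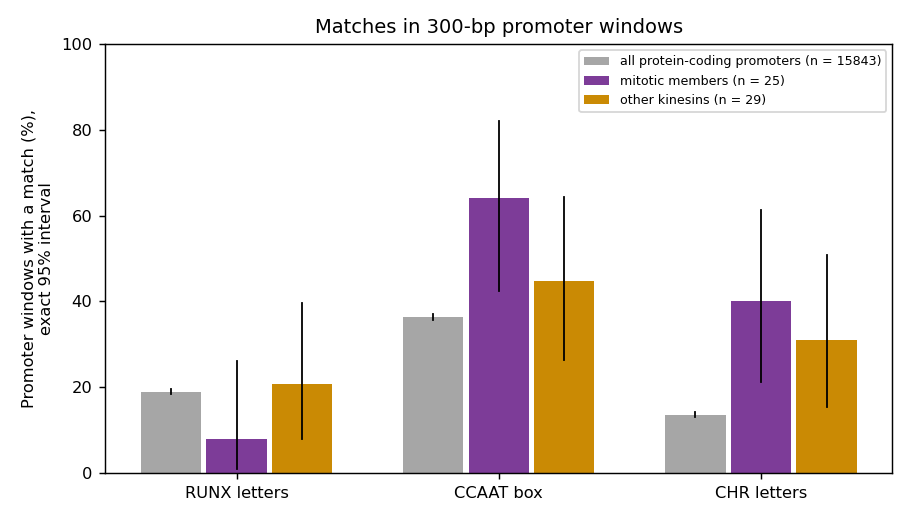
Percentage of 300-bp promoter windows that hold RUNX, CCAAT or CHR letters on either strand, for all protein-coding promoters (grey), mitotic genes (purple) and other kinesins (ochre). Bars start at 0 and lines are exact 95% intervals. CCAAT and CHR stand at 64% and 40% in the mitotic genes, above 36.4% and 13.6% of all promoters. RUNX letters at 8% stand below 18.9%, a share that their interval of 0.984 to 26 includes.

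Kinetochore and spindle genes with other names had peaks at shares near those of the 20 CENP genes with a complete symbol. Those CENP genes stood at 85% for RUNX2 and 95% for MTA1, and all 24 CENP genes at 75% and 83.3%. All protein-coding genes stood at 49.9% and 50.9%. Of the 32 kinetochore and spindle genes, 29 had a RUNX2 peak (90.6%, 75 to 98), 30 an MTA1 peak (93.8%, 79.2 to 99.2) and 28 both. By MTA1 score they were led by BUB3, a spindle checkpoint protein, with 48.6, DSN1, of the outer kinetochore, with 38.7, and the kinase gene AURKA with 38.5. Their RUNX2 scores were 36.4, 16.4 and 54.5. The median ranks of the list were 56.9 for RUNX2 and 59.9 for MTA1.

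Partners of kinesins and the kinesin-14 motors had each kind of peak at 8 of 11 genes (72.7%, 39 to 94). They were led by KIFC1, a motor that clusters centrosomes, with 60.5 for MTA1 and 25.7 for RUNX2, KLC2, a kinesin light chain, with 55.5 and 15.7, and TRAK2, a mitochondrial adaptor, with 36.6 and 21.1. Dynein heavy chains, the motors that walk the other way, had RUNX2 peaks at 9 of 15 genes (60%, 32.3 to 83.7) and MTA1 peaks at 10 of 15 (66.7%, 38.4 to 88.2), led by DNAH5 with 23.6 for MTA1 and 13 for RUNX2, the cytoplasmic DYNC1H1 with 19.3 and 26.4, and DNAH6 with 15 and 21.6. The intervals of both lists included the shares of all protein-coding genes.

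Away from the ends, the genes held no more peaks per length than all protein-coding genes pooled. Peaks over 1 kb inside both ends numbered 1.64 per 100 kb of gene for RUNX2 and 0.783 for MTA1 in the mitotic genes, and 2.22 and 1.1 in the other kinesins, against 2.25 and 1.47 over all protein-coding genes. The next examples were chosen after their values were seen. KIF25, with no peak at its ends, held a RUNX2 peak of 73.9 at chr6:168007580-168007999, higher than 99.8% of all RUNX2 peaks, with an MTA1 peak of 19.5 inside it. KIF5C held a RUNX2 peak of 26.2 at chr2:148881718-148881850, 6557 bp from its start, inside an MTA1 peak of 33.3. KIF24 held a RUNX2 peak of 19.7 and an MTA1 peak of 42.4 over the annotated start in the promoter table, at chr9:34329178-34329612 and chr9:34329163-34329702, which lies inside the span of the gene table and so was not counted as an end.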

How the data were processed

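The authors called peaks per library and deposited each with a score whose scale is not stated. Per the labels' processing notes, CASAVA 1.4, Bowtie 0.12.8, MACS, MACS2 and hg19 were used, without their roles. Read counts were not used here, so depth is unknown, and a score ranks peaks only within its list.

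Gene ends came from the RefSeq table of GRCh38.p14, starts and sequences from its promoter table, which matched 54 of 63 members and had no entry for CENPH, CENPL, CENPM, KIF13B, KIF19, KIF21B, KIF26B, KIF27 and KIF5A. A gene had a peak when any base lay within 1 kb of either end. Shares carry exact (Clopper-Pearson) 95% intervals, differences of shares Newcombe intervals. No p-value was computed, as genes are not replicates. The step that matches peaks to gene ends was tested on simulated data, and the Newcombe interval was checked against a textbook example. Motifs were TGTGGT or TGCGGT (RUNX), CCAAT, and TTTGAA or TTCGAA (CHR), on both strands.

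Members and lists were chosen with earlier results of these data known. Named genes were every mitotic member, the 5 other kinesins with the highest score in each library, those with a peak of 1 library only, those with none, and the 3 members of highest MTA1 score of each further list. Tools were Python 3.11.15, scipy 1.17.1, pandas 2.3.3, numpy 2.4.6 and, for figures, matplotlib 3.10.9.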

Additional observations from a re-analysis of the deposited data

How the results depend on the processing

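No paired analysis was possible because each antibody had 1 library and no result comes from a test. Of the values recomputed under alternatives, 65 stayed inside the interval of the main value and 10 fell outside it. Wide intervals let a value change much and stay inside. The RUNX2 difference between the groups did so, falling from 21.4 points to 0 without genes near another gene's end. With only peaks that score at least the median of their list, shares of genes with a peak were 49.2% for RUNX2, 57.1% for MTA1 and 47.6% for both, against 37.2%, 38.5% and 31.4% of all protein-coding genes. With the top 10000 peaks of each list by score they were 22.2%, 42.9% and 20.6%, against 14.5%, 24.6% and 12.2%, and median ranks were 39.1 for RUNX2 and 30.5 for MTA1. Fewer peaks lower every share by construction. Without genes near another gene's end, shares were 53.8% (37.2 to 69.9) for RUNX2, 59% (42.1 to 74.4) for MTA1 and 51.3% (34.8 to 67.6) for both, against 42.7%, 42.9% and 36.1% of all protein-coding genes, so that each interval included the share of all genes. Peaks that overlapped by at least 50% of both were found in 78% of genes with both.

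The difference between mitotic genes and other kinesins depended on the choices. For RUNX2 it was 4.29 points with a window of 3 kb, 9.38 with annotated starts only, 5 with the top 10000 peaks and 0 without genes near another end, and 30.4 with complete symbols only (6.62 to 48.6). For MTA1 it was 17.1, 11, 12.9, 15.4 and 35.8 (14.2 to 52.6). The interval included 0 for each of these except complete symbols. With peak centres in the window the differences were 24.3 (0.611 to 43.9) for RUNX2 and 25.7 (3.25 to 44.3) for MTA1. With peaks wider than the narrowest of their list they were 20.7 (-3.15 to 41) and 25.7 (3.25 to 44.3). With peaks of at least the median score they were 20.7 (-3.88 to 42.1) and 12.9 (-11.3 to 34.7). The intervals with the 10 further kinesins, given above, did not include 0. The difference in median RUNX2 rank ranged from -8.74 to 18.7 and that for MTA1 from -0.433 to 6, so no order of the groups by score can be given.

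Unknown depth, missing controls and an unstated threshold limit every absence of a peak. The 4 members with incomplete symbols and the shared promoters add genes that are not independent.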
